A study of Homo sapiens with 6 samples.

Results

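The tubulin mRNA of A549 cells, an established line of human lung adenocarcinoma, was measured gene by gene after siRNA against CEP20 (siCEP20) and after control siRNA (siCTR). The 10 genes described here encode 4 alpha tubulins (TUBA1A, TUBA1B, TUBA1C and TUBA4A) and 6 beta tubulins (TUBB, TUBB2A, TUBB2B, TUBB3, TUBB4B and TUBB6), out of 60624 genes in the table. They were chosen by their TPM in these same libraries, with earlier results of these data known, and they are the 10 with the highest mean among 21 protein-coding alpha and beta tubulin genes listed. TPM is a transcript level divided by transcript length and by the library total, so it can be compared between genes. The lowest member, TUBB2A, had a mean of 27.5 TPM over the 6 libraries, and the highest gene left out, TUBB4A, had a mean of 11.9 TPM. Because the levels may have chosen the genes, the levels below are a description with no test. The comparison may have chosen them too, so its p-values below are not independent evidence.

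RNA came from 3 siCEP20 and 3 siCTR samples, all of the same A549 line and all transfected for 3 days according to the labels. The labels name F-12K medium with 10% serum and a spin-column RNA kit, where the methods name DMEM and TRIzol, and 1 label field of all 6 samples calls the treatment a plasmid transfection. Nothing in the labels says that samples of a group came from separate cultures, so the p-values measure the spread between these samples, which may be technical. The methods give 2 siRNA sequences against CEP20, and which of them went into the sequenced samples is not given in the sources used here.

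Microtubules are hollow polymers of alpha and beta tubulin dimers, and human cells carry several genes, or isotypes, for each subunit. The isotypes of a subunit are similar in their globular body and mostly differ more, residue for residue, in the acidic C-terminal tail. The tail lies on the microtubule surface and carries most tubulin modifications. Most alpha tubulins are translated with a C-terminal tyrosine that can be removed and added back. Cells also hold tubulin mRNA in check: free tubulin dimers lead to degradation of tubulin mRNA while it is translated, through recognition of the first 4 residues of the new chain.

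The first 30 coding bases are shown for 2 alpha and 3 beta genes, with the first 4 codons in capitals. The residues that these codons encode are the part recognized in tubulin mRNA autoregulation.
TUBA1B: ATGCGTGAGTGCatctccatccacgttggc
TUBA4A: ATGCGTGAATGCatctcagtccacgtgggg
TUBB: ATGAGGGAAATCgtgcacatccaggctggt
TUBB4B: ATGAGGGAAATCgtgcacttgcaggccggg
TUBB6: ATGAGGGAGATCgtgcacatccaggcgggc
The capitals encode the same 4 residues in the 4 alpha genes and a second set of 4 residues in the 6 beta genes, although the codons differ (TUBA1B and TUBA4A differ in the third codon). All 10 members thus encode the start of their family, and mRNA decay through it was not tested.

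The last 45 coding bases, stop codon included, are shown for 2 alpha and 3 beta genes. They encode the tail, where most isotypes differ more per residue than in the body. The last sense codon is in capitals, and the sequences come from the GENCODE 44 MANE Select transcripts on hg38.
TUBA1C: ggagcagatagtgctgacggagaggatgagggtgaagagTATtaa
TUBA4A: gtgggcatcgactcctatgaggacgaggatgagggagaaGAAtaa
TUBB: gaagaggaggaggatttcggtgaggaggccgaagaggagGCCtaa
TUBB4B: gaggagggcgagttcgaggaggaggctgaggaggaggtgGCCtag
TUBB3: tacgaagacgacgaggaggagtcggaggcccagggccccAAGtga
These stretches lie at chr12:49273183-49273227 for TUBA1C, chr2:219250352-219250396 for TUBA4A, chr6:30724353-30724397 for TUBB, chr9:137243512-137243556 for TUBB4B and chr16:89935760-89935804 for TUBB3. TUBA4A lies on the minus strand and the others shown lie on the plus strand. TUBA1A and TUBA1B end in TAC and TUBA1C in TAT, both codons for tyrosine, whereas TUBA4A ends in GAA, which encodes glutamate. TUBA4A mRNA therefore encodes no terminal tyrosine, and the last 20 residues of each alpha tail held 10 acidic residues in TUBA1A, TUBA1B and TUBA1C and 12 in TUBA4A.

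Protein identity was computed from the translated coding sequences as 1 minus the edit distance over the longer length. TUBA1A and TUBA1B were 99.56% identical over the whole protein and identical over the last 20 residues. TUBA4A was the alpha member farthest from TUBA1B, with 96.23% identity overall and 50% over the last 20 residues. Among beta tubulins, TUBB and TUBB4B were 97.53% identical overall and 75% over the tail, TUBB and TUBB6 90.58% and 40%, and TUBB and TUBB3 91.56% and 20%. Outside the last 20 residues TUBB was 92.02% identical to TUBB6 and 92.56% to TUBB3, so these pairs also differ in the body. TUBB2A and TUBB2B were 99.55% identical with identical tails. An alpha and a beta tubulin, TUBA1B and TUBB, were 41.91% identical.

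The sequencing depth of each library is unknown, since the TPM of every library adds up to the same total. CEP20, a centrosomal protein and the target of the siRNA, was at 29.2, 30.5 and 35.1 TPM in siCTR and at 16.2, 15.3 and 17.3 TPM in siCEP20, so every siCEP20 library was below every siCTR library (log2 fold change -0.92, SE 0.0915, adjusted p = 0.000205). The mitochondrial pseudogene MTATP8P1 took 2.39% of the TPM of siCTR-1 and 5.13% of siCEP20-1 and was listed at 0 in the other 4 libraries. Leaving all mitochondrial pseudogenes out and rescaling kept the number of members past each threshold. The 5 epithelial keratin and adhesion markers were abundant, with a summed level of 7018 to 7321 TPM in siCTR and 8450 to 8685 TPM in siCEP20. Of 7 neuron markers, which bear on the neuronal isotypes TUBB3, TUBA1A, TUBB2A and TUBB2B, DCX and STMN2 were at 0 in every library. NEFM was under 1 TPM, so RBFOX3, SNAP25, SYT1 and NEFL made up nearly all of the sum. The summed level was 78.5 to 90.1 TPM in siCTR and 114 to 120 TPM in siCEP20. Summed immune markers ran from 24.5 to 34.6 TPM in siCTR and from 35.3 to 55.1 TPM in siCEP20. PTPRC and CD3E were under 1 TPM, so CD14, LYZ and CD68 made up most of this sum. Summed fibroblast markers went from 5.37–6.02 TPM to 17.5–20.0 TPM. COL1A2, DCN, LUM and PDGFRB were under 1 TPM, so COL1A1 made up most of this sum. All 3 endothelial markers were under 1 TPM. The part of these markers in the results was not tested. In bulk RNA, fewer cells of a type and less RNA per cell cannot be told apart.

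The most abundant tubulin mRNA in A549 cells was TUBA1B, the alpha isotype made in most cell types, at 970.1, 1086 and 1093 TPM in siCTR. TUBB, the beta isotype made in most cell types, followed at 636.0 to 710.6 TPM, and then TUBB4B, which is also widespread and is abundant in ciliated cells, at 363.1 to 396.6 TPM. TUBA1C lay at 276.9 to 342.8 TPM and TUBA1A, best known from developing neurons, at 143.5 to 161.6 TPM. None of these 5 genes overlapped its neighbour in the order. TUBA4A, which is abundant in platelets, lay at 115.9 to 136.9 TPM and overlapped TUBB3, the isotype used as a neuronal marker, at 111.2 to 121.3 TPM. TUBB3 in turn overlapped TUBB6, at 104.6 to 112.4 TPM. TUBB2B at 26.6 to 27.9 TPM and TUBB2A at 24.2 to 25.4 TPM, both best known from brain, were lowest and did not overlap. Among the genes tested, the siCTR level of the members ran from percentile 62.9 (TUBB2A) to 99.1 (TUBA1B).

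**Figure D1:**
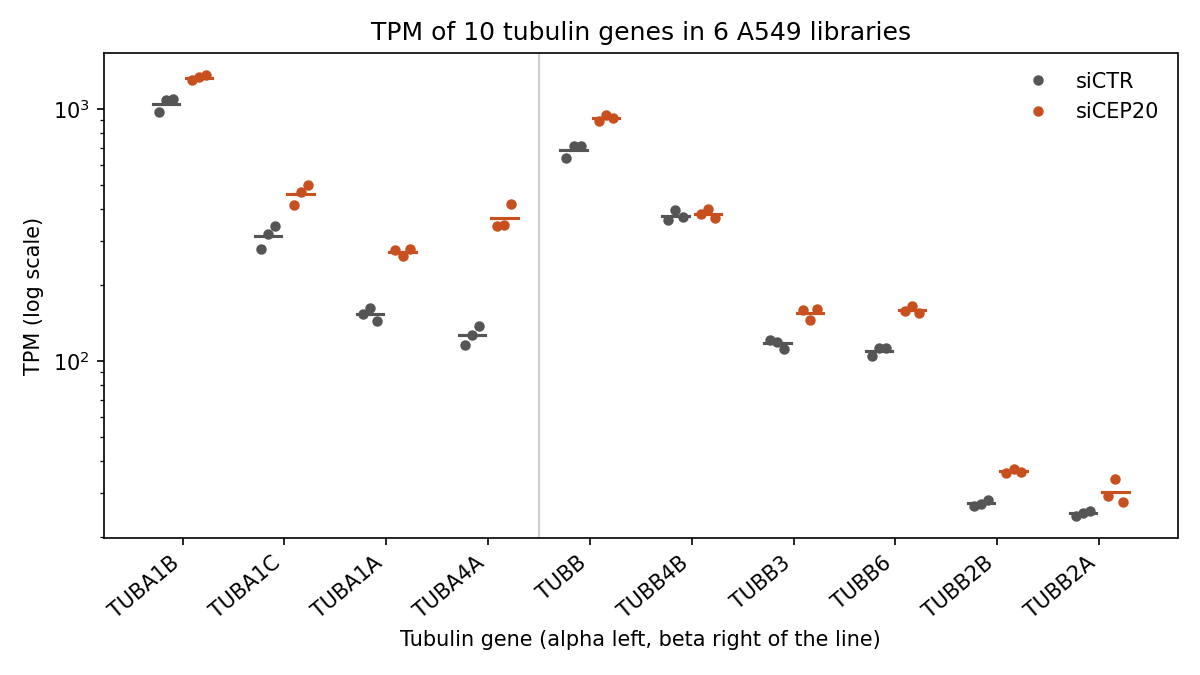
TPM of each tubulin gene on a log axis (vertical) for the 4 alpha genes, left of the grey line, and the 6 beta genes, right of it. Each point is 1 library, grey for siCTR and orange for siCEP20, and the horizontal bar is the group mean (n = 3). The siCEP20 points lie above the siCTR points for 9 genes, and for TUBB4B the groups overlap at 363.1 to 399.7 TPM.

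The order of the genes was partly different in siCEP20. TUBA1B (1296 to 1362 TPM) and TUBB (896.6 to 949.2 TPM) were again the highest. TUBA1C, at 415.2 to 497.5 TPM, lay above TUBB4B, at 370.2 to 399.7 TPM. TUBA4A moved from the sixth place to the range of these genes, at 341.6 to 417.9 TPM, and overlapped both TUBB4B and TUBA1C. TUBA1A lay below them at 261.2 to 276.6 TPM. TUBB6 and TUBB3 overlapped at 145.0 to 165.4 TPM, and TUBB2B and TUBB2A remained the lowest members.

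The comparison of siCEP20 with siCTR asks how tubulin mRNA stood after CEP20 knockdown. It was fitted with limma on log2(TPM + 1) over the 14778 genes whose mean reached 1 TPM, a filter that all 10 members passed, and p-values were adjusted over all of these genes by Benjamini-Hochberg. A fold change on this scale understates the change of genes with low TPM. Of the 10 members, 9 rose at an adjusted p under 0.05, where 30.2% of all tested genes did, and 0 fell (0 also at an unadjusted limma p under 0.05), where 13.2% of all tested genes did. With median-of-ratios scaling and with quantile normalization 8 members rose, as TUBB2A did not pass. At the additional threshold of a fold change over 1.5, 2 members (TUBA4A and TUBA1A) were called higher, against 11.2% of all tested genes, and 0 were called lower, against 4.61%. For 9 members every siCEP20 library lay above every siCTR library, which held for 38.4% of all tested genes. The median log2 fold change was 0.42 over the members, 0.69 over the alpha and 0.40 over the beta genes, and 0.13 over all tested genes. These counts describe a list picked with results of these libraries known and are not independent evidence of its direction.

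TUBA4A (ENSG00000127824, chr2:219249710-219277902, minus strand) showed the largest difference among the members. It was at 115.9, 126.7 and 136.9 TPM in siCTR and at 341.6, 344.4 and 417.9 TPM in siCEP20. The lowest siCEP20 library was thus far above the highest siCTR library. The means were 126 ± 10.5 and 368 ± 43.3 TPM (SD, n = 3), 2.91 times higher in siCEP20, with a log2 fold change of 1.53 (SE 0.0935, 95% interval 1.32 to 1.74, adjusted p = 3.78e-05). It stood at rank 79 of the tested genes by the size of the change, and its log2 fold change was 1.40 above the median of all tested genes.

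TUBA1A (ENSG00000167552, chr12:49184686-49189080, minus strand) was the other member past the fold threshold. Its levels were 153.4, 161.6 and 143.5 TPM in siCTR and 276.0, 261.2 and 276.6 TPM in siCEP20, with no overlap and a spread under 10 TPM (SD) in either group. The means of 152.9 ± 9.06 and 271 ± 8.72 TPM (SD, n = 3) gave a log2 fold change of 0.82 (SE 0.0601, 95% interval 0.69 to 0.96, adjusted p = 6.28e-05).

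The other alpha genes rose by less. TUBA1C (ENSG00000167553, chr12:49188736-49274600, plus strand), a second widely made alpha isotype, was at 276.9, 317.8 and 342.8 TPM in siCTR and at 415.2, 469.0 and 497.5 TPM in siCEP20. Its log2 fold change was 0.56 (SE 0.0929, adjusted p = 0.00205), just under the fold threshold, and leaving out siCTR-3 (0.63) or siCEP20-1 (0.63) put it past that threshold, so that 3 members were called higher. TUBA1B (ENSG00000123416, chr12:49127782-49131397, minus strand) was at 970.1, 1086 and 1093 TPM in siCTR and at 1296, 1332 and 1362 TPM in siCEP20. The most abundant alpha isotype thus had the smallest log2 fold change of the alpha genes, 0.34 (SE 0.0573, adjusted p = 0.00211).

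TUBA1A, TUBA1B and TUBA1C lie side by side on chromosome 12, so they are not independent of each other by position. TUBA1C starts on the opposite strand within TUBA1A, with 345 bases in common, and the antisense transcript TUBA1B-AS1 covers the whole of TUBA1B and 3799 bases of TUBA1A. TUBA1B-AS1 was at 1.94, 0.699 and 2.29 TPM in siCTR and at 6.33, 4.77 and 8.35 TPM in siCEP20, a small fraction of the level of TUBA1B on the same TPM scale. TUBA4A shares 628 bases with STK16 on the opposite strand, which was at 41.4 TPM in siCTR and 42.6 TPM in siCEP20. The library preparation marked strand according to the methods, and whether the quantification used it is not given in the sources used here.

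Among the beta members, TUBB6 had the highest log2 fold change on the TPM as deposited, and with quantile normalization TUBB (0.52) was above TUBB6 (0.47). TUBB6 (ENSG00000176014, chr18:12307669-12344320, plus strand), a beta isotype found at low levels in many tissues, was at 104.6, 112.4 and 112.2 TPM in siCTR and at 157.4, 165.4 and 154.3 TPM in siCEP20. The groups were separated by more than the spread within either, and the log2 fold change was 0.53 (SE 0.0574, adjusted p = 0.000289). AFG3L2 lies across TUBB6 on the opposite strand over 15377 bases and was at 38.5 TPM in siCTR and 44.6 TPM in siCEP20.

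TUBB (ENSG00000196230, chr6:30717435-30725538, plus strand) was at 636.0, 710.2 and 710.6 TPM in siCTR and at 896.6, 949.2 and 918.7 TPM in siCEP20. The gain of 236 TPM in the mean was the largest of any beta gene in absolute terms, and the log2 fold change was 0.43 (SE 0.0573, adjusted p = 0.00077). TUBB3 (ENSG00000258947, chr16:89921392-89938761, plus strand) was at 121.3, 119.3 and 111.2 TPM in siCTR and at 158.4, 145.0 and 160.2 TPM in siCEP20. Its groups did not overlap, with a log2 fold change of 0.40 (SE 0.0632, adjusted p = 0.00171). The 7 neuron markers summed to 78.5 to 90.1 TPM in siCTR and 114 to 120 TPM in siCEP20, and their part in the TUBB3 value was not tested.

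The class II pair lies in tandem on chromosome 6 and has nearly the same sequence. TUBB2B (ENSG00000137285, chr6:3223324-3231730, minus strand) was at 26.6, 26.9 and 27.9 TPM in siCTR and at 36.0, 37.2 and 36.2 TPM in siCEP20. Its libraries were tightly grouped, and the log2 fold change was 0.41 (SE 0.0633, adjusted p = 0.00142). TUBB2A (ENSG00000137267, chr6:3153497-3157544, minus strand) was at 24.2, 24.8 and 25.4 TPM in siCTR and at 29.2, 34.0 and 27.5 TPM in siCEP20. TUBB2A had the weakest support of the 9 genes that rose, with a log2 fold change of 0.27 (SE 0.0891, adjusted p = 0.0407) and a spread in siCEP20 that came mostly from siCEP20-2. The adjusted p of TUBB2A was over 0.05 without siCTR-1 (0.0968), siCTR-2 (0.0909), siCTR-3 (0.0658), siCEP20-1 (0.0726) or siCEP20-2 (0.123), with median-of-ratios scaling (0.239) and with quantile normalization (0.209).

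TUBB4B was the exception. TUBB4B (ENSG00000188229, chr9:137241287-137243707, plus strand) was at 363.1, 396.6 and 372.0 TPM in siCTR and at 381.7, 399.7 and 370.2 TPM in siCEP20, so that the groups overlapped over most of their range. The means were 377 ± 17.3 and 384 ± 14.9 TPM (SD, n = 3), with an exact permutation p of 0.6. The log2 fold change was 0.03 (SE 0.055, 95% interval -0.10 to 0.15, adjusted p = 0.733), and it was -0.13 (adjusted p = 0.0798) when libraries were scaled by the median of ratios. On the TPM as deposited, the interval leaves out the log2 fold changes fitted for the other 9 members. The nearest was TUBB2A at 0.27, whose own interval of 0.06 to 0.47 overlaps that of TUBB4B.

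**Figure D2:**
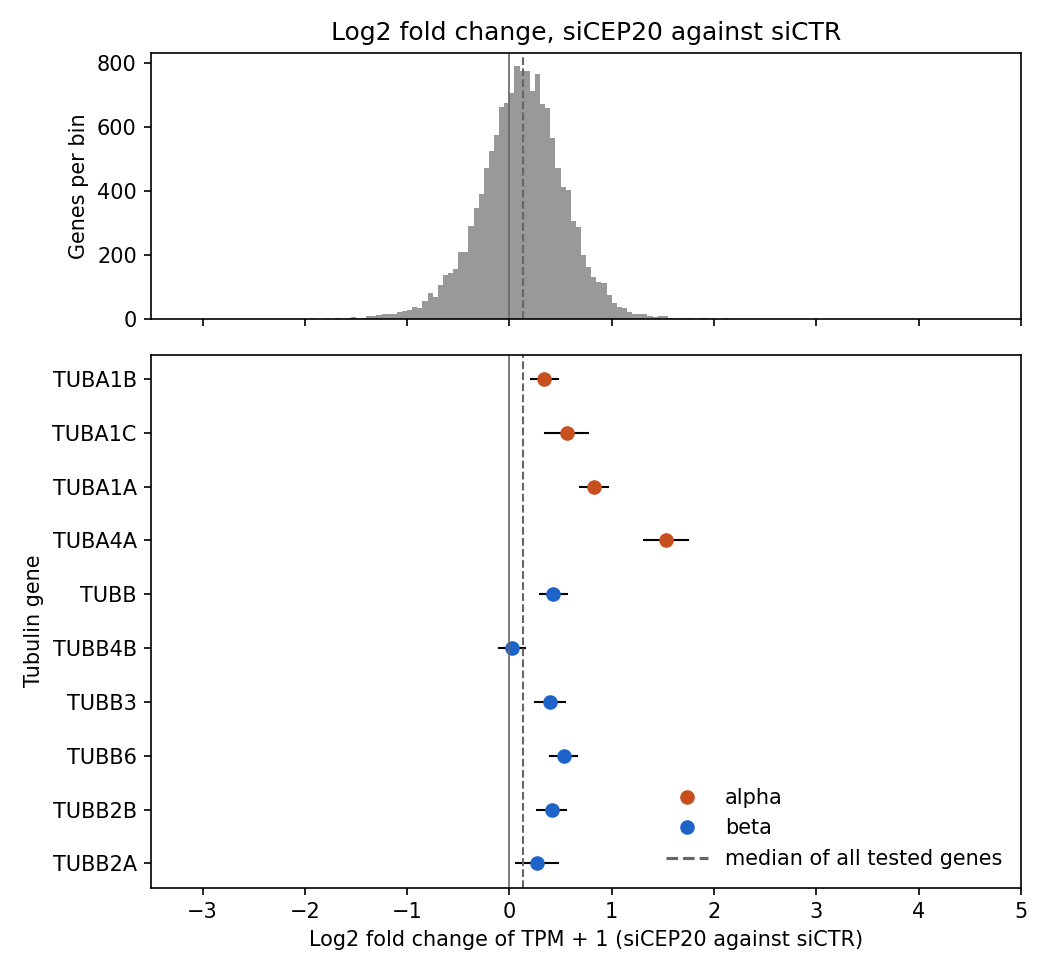
Upper panel, number of tested genes per bin of log2 fold change (siCEP20 against siCTR). Lower panel, log2 fold change of TPM + 1 for each tubulin gene, with its 95% interval as a line, orange for alpha and blue for beta; the dashed line is the median of all tested genes, 0.13. TUBA4A at 1.53 and TUBA1A at 0.82 lie farthest right, and the interval of TUBB4B includes 0, with its sign turning to -0.13 under median-of-ratios scaling.

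The zero point of these changes depends on the scaling. With median-of-ratios scaling the median of all tested genes moved from 0.13 to 9.4e-05, and the log2 fold changes became 1.38 for TUBA4A, 0.67 for TUBA1A, 0.41 for TUBA1C, 0.38 for TUBB6, 0.28 for TUBB, 0.27 for TUBB2B, 0.25 for TUBB3, 0.19 for TUBA1B, 0.12 for TUBB2A (adjusted p = 0.239) and -0.13 for TUBB4B. The same 2 genes, TUBA4A and TUBA1A, were 1.40 and 0.69 above the median of all tested genes on the unscaled values, and TUBB4B was 0.11 below it.

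Summing the isotypes gives the mRNA pool for each subunit, of which the dimer needs equal amounts as protein. The alpha pool was at 1516, 1693 and 1716 TPM in siCTR and at 2329, 2406 and 2554 TPM in siCEP20. The beta pool was at 1276, 1390 and 1359 TPM in siCTR and at 1659, 1731 and 1667 TPM in siCEP20. The lowest siCEP20 value of either pool lay above the highest siCTR value. The mean of the alpha pool was 1642 ± 109 TPM in siCTR and 2430 ± 114 TPM in siCEP20 (SD, n = 3), 1.48 times higher, and that of the beta pool 1342 ± 59.1 and 1686 ± 39.1 TPM, 1.26 times higher. For each pool the two-sided exact permutation p was 0.1, the smallest that 3 against 3 libraries allow, so no single value here can reach 0.05. The beta difference of 344 TPM became 186 TPM with median-of-ratios scaling, with the groups still apart. Together the pools took 0.279 to 0.308% of all TPM in siCTR and 0.399 to 0.422% in siCEP20.

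The ratio of the pools does not depend on a single scaling factor per library, and it was not computed with quantile normalization. The alpha-to-beta ratio was 1.19, 1.22 and 1.26 in siCTR and 1.40, 1.39 and 1.53 in siCEP20. The groups did not overlap, with means of 1.22 ± 0.0371 and 1.44 ± 0.0782 (SD, n = 3; exact permutation p = 0.1).

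**Figure D3:**
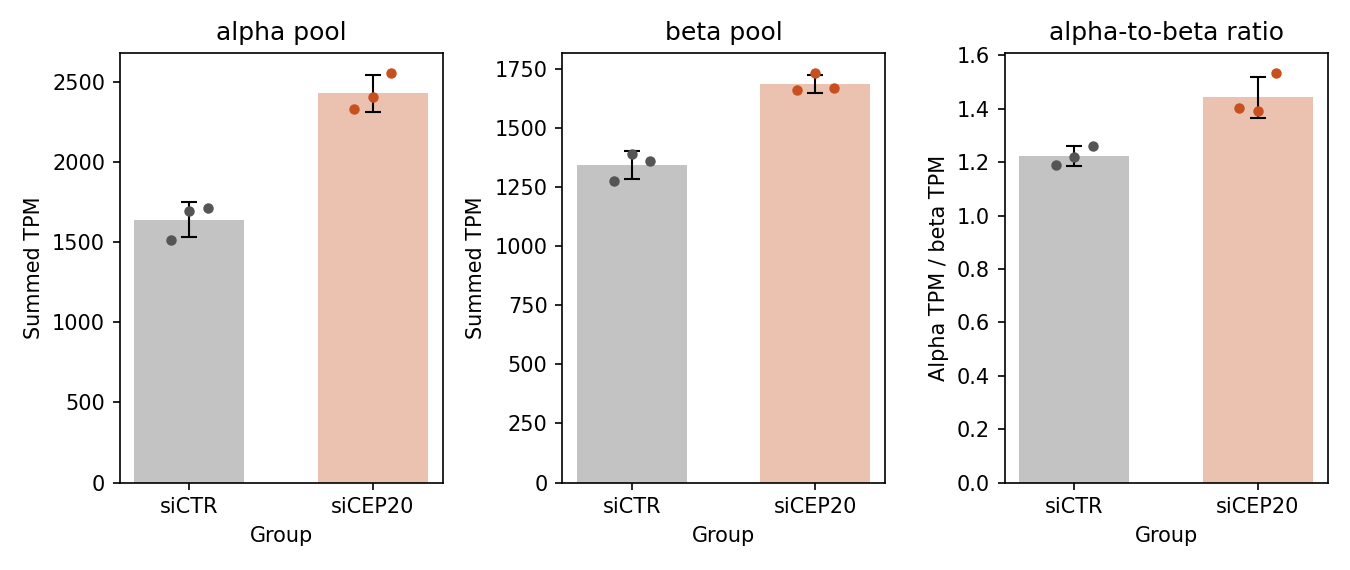
Summed TPM of the alpha genes (left) and of the beta genes (middle), and the ratio of the first to the second (right), by group. Bars are means of 3 libraries starting at 0, whiskers the SD and points single libraries. The ratio is 1.19 to 1.26 in siCTR and 1.39 to 1.53 in siCEP20.

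The gain of each pool came from different isotypes. Of the 788 TPM gained in the mean of the alpha pool, TUBA1B held 35.6%, TUBA4A 30.6%, TUBA1C 18.8% and TUBA1A 15.0%. The order turned with median-of-ratios scaling, where TUBA4A gained 216 and TUBA1B 157 of 577 TPM. Of the 344 TPM gained in the beta pool, TUBB held 68.6%, TUBB6 14.3%, TUBB3 10.9% and TUBB2B, TUBB4B and TUBB2A under 3% each. With that scaling the beta gain was 186 TPM, of which TUBB gained 152 TPM, and TUBB4B was 33.2 TPM lower in siCEP20 than in siCTR.

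The share of each isotype within its pool describes the composition and likewise does not depend on a single scaling factor per library. Shares were not computed with quantile normalization. The shares of a pool add up to 100%, so they are not independent of each other, and 10 shares were compared. Benjamini-Hochberg adjustment over the 10 shares turned each exact permutation p of 0.1 into 0.143. TUBA4A made up 7.64, 7.49 and 7.98% of the alpha pool in siCTR and 14.7, 14.3 and 16.4% in siCEP20. Its mean share was 7.70 ± 0.251% and 15.1 ± 1.10% (SD, n = 3), a difference of 7.41 percentage points (exact permutation p = 0.1, the smallest possible). TUBA1B made up 64.0, 64.2 and 63.7% in siCTR and 55.7, 55.3 and 53.3% in siCEP20. The leading alpha isotype had a lower share in every siCEP20 library although its own TPM rose, with a difference of -9.17 percentage points (exact permutation p = 0.1). TUBA1A had a mean share of 9.34 ± 0.894% in siCTR and 11.2 ± 0.583% in siCEP20 without overlap (exact permutation p = 0.1), and TUBA1C kept overlapping shares of 19.0% and 18.9% (exact permutation p = 1.0).

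In the beta pool, the share of TUBB4B showed the largest difference. It was 28.5, 28.5 and 27.4% in siCTR and 23.0, 23.1 and 22.2% in siCEP20, so that every siCEP20 library was below every siCTR library. The mean share was 28.1 ± 0.652% and 22.8 ± 0.489% (SD, n = 3), a difference of -5.35 percentage points (exact permutation p = 0.1). TUBB had a mean share of 51.1% in siCTR and 54.7% in siCEP20, a difference of 3.60 points without overlap (exact permutation p = 0.1). TUBB6 had 8.18 ± 0.0876% and 9.43 ± 0.159% (SD, n = 3), a difference of 1.25 points that was large beside the spread between libraries (exact permutation p = 0.1). TUBB2B differed by 0.137 points without overlap, from 2.03% to 2.16%. The shares of TUBB3 (8.75% and 9.18%, exact permutation p = 0.5) and TUBB2A (1.85% and 1.79%, exact permutation p = 0.6) overlapped between the groups.

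**Figure D4:**
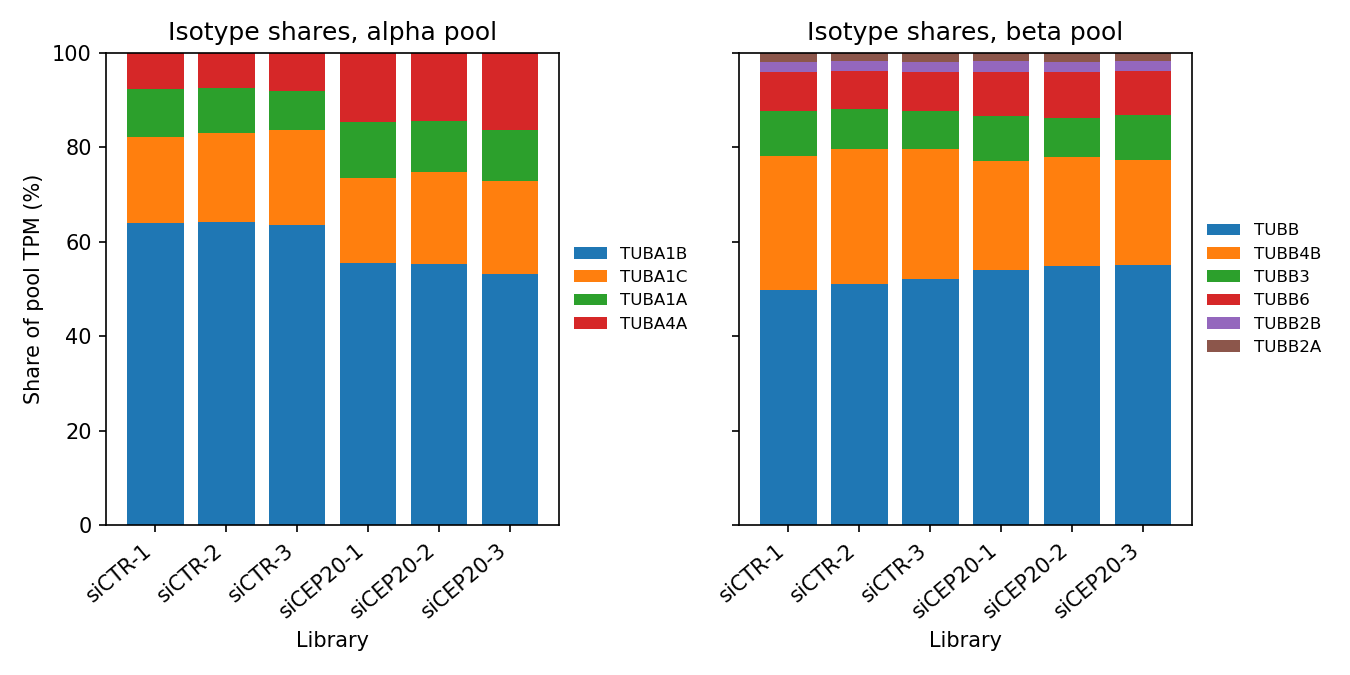
Share of each isotype in the summed TPM of its pool (percent, vertical) for each of the 6 libraries, alpha on the left and beta on the right. The TUBA4A segment at the top of the alpha bars is 7.49 to 7.98% in siCTR and 14.3 to 16.4% in siCEP20, and the TUBB4B segment of the beta bars is 27.4 to 28.5% and 22.2 to 23.1%.

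The whole composition separated the groups more than it separated libraries of a group. The share that would have to change isotype to turn a library into another was 8.63 to 10.9 points for the 9 alpha pairs between groups and 0.727 to 3.35 points for the 6 pairs within groups. For beta the values were 4.27 to 6.5 points between groups and 1.14 to 2.48 points within them.

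Ratios between members within a library leave out the rest of the pool. TUBA4A stood at 0.120 times the TPM of TUBA1B in siCTR and at 0.276 times in siCEP20, and TUBA1A at 0.146 and 0.204 times. The ratio of TUBB4B to TUBB was 0.551 in siCTR and 0.417 in siCEP20, and that of TUBB6 to TUBB 0.16 and 0.173. These 4 ratios did not overlap between the groups. They were not computed with quantile normalization, where the log2 fold change of TUBB (0.52) was above that of TUBB6 (0.47). TUBB3 to TUBB (0.172 and 0.168, exact permutation p = 0.9) and TUBB2A to TUBB2B (0.914 and 0.827, exact permutation p = 0.3) did overlap.

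Read by the last codon shown above, the alpha pool differed in the tail it encodes. Messages ending in a tyrosine codon (TUBA1A, TUBA1B and TUBA1C) made up 92.4, 92.5 and 92.0% of alpha TPM in siCTR and 85.3, 85.7 and 83.6% in siCEP20. The means were 92.3 ± 0.251% and 84.9 ± 1.10% (SD, n = 3). This is the complement of the TUBA4A share and not a second result, and it concerns mRNA, since no protein or tail modification was measured here.

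Near-identical sequences can split reads between members. Windows of 150 bases of the main transcript were compared with the transcripts of other annotated genes, in the transcript direction only. Overlap with a gene on the opposite strand, as of TUBA4A with STK16 or TUBB6 with AFG3L2, was thus not counted. In that direction the share of windows found in another gene was 0% for TUBA4A, TUBB4B and TUBB6. TUBA4A and TUBB4B were the members with the largest and the smallest log2 fold change. The share was 2.66% for TUBB (with the pseudogene TUBBP1), 7.22% for TUBA1C, 8.01% for TUBA1A and 19.1% for TUBA1B. It was 41.6% for TUBB2B and 48.7% for TUBB2A, mostly between the 2 genes themselves, so the separate values of this pair are uncertain. For TUBB3 it was 92.3%, nearly all with a readthrough gene (ENSG00000198211) on the same strand, which was at 1.31 TPM in siCTR and 3.33 TPM in siCEP20.

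The alpha and beta tubulin genes outside the members were minor. They held 0.708% of all alpha and beta tubulin TPM, pseudogenes included, in siCTR and 0.796% in siCEP20, and 7 of the 11 protein-coding ones were above 0 in at least 1 library. TUBB4A, a brain isotype close to TUBB4B in sequence (98.43% protein identity), was at 7.47, 9.08 and 9.14 TPM in siCTR and at 13.0, 15.3 and 17.5 TPM in siCEP20. TUBB4A was called higher, with a log2 fold change of 0.76 (SE 0.127, adjusted p = 0.00206). TUBAL3 was at a mean of 1.58 and 1.07 TPM (log2 fold change -0.30, adjusted p = 0.236). Of 50 pseudogenes 10 were above 0 somewhere, and TUBB2BP1, which lies between TUBB2A and TUBB2B and shares sequence with both, was called higher (2.41, 2.1 and 2.9 TPM in siCTR; 5.94, 7.04 and 8.53 TPM in siCEP20; adjusted p = 0.000575). TUBBP1 (log2 fold change 0.10, adjusted p = 0.508) and TUBAP2 (0.26, adjusted p = 0.342) did not pass the test.

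Other tubulins and the genes that act on tubulin are given as counts from lists written with earlier results known. Of the 10 listed other alpha and beta tubulins 2 were tested, and 1 rose. Of the 4 gamma, delta and epsilon tubulins, which serve nucleation and centrioles, 2 rose and 0 fell, where 30.2% of all tested genes rose and 13.2% fell, but 0 rose and 1 fell with median-of-ratios scaling. TUBG1, the main gamma tubulin, had a mean of 133 TPM in siCTR and 169 TPM in siCEP20 (log2 fold change 0.34, adjusted p = 0.0147), and TUBD1 had overlapping groups (0.35, adjusted p = 0.0479). That count was 0 without siCTR-1 or siCEP20-2 and 1 without siCTR-3 or siCEP20-1.

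Of the 24 genes for tubulin folding and autoregulation, all tested, 5 rose, where 30.2% of all tested genes did. In the list 11 fell, where 13.2% of all tested genes did, and the median log2 fold change of the list was -0.08, beside 0.13 for the tested genes as a whole. With median-of-ratios scaling 2 rose and 14 fell, and with quantile normalization 2 rose and 12 fell. Among the higher ones, CCT5, a subunit of the chaperonin that folds tubulin, changed by 0.38 on the log2 scale (adjusted p = 0.0014), and SCAPER, which takes part in tubulin mRNA decay, 0.60 (adjusted p = 0.00773). Among the lower ones, PFDN5, a prefoldin subunit that hands tubulin to the chaperonin, went from 435 to 271 TPM (-0.68, adjusted p = 5.22e-05), and TBCB, a tubulin cofactor, from 576 to 377 TPM (-0.61, adjusted p = 9.08e-05). The count of 5 was 3 without siCTR-1, siCTR-2, siCEP20-2 or siCEP20-3.

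Of the 22 tail and lumen modifying enzymes 18 were tested, and 4 rose, a share below the 30.2% of all tested genes, and 0 fell, where 13.2% of all tested genes did (2 fell with median-of-ratios scaling and 2 with quantile normalization). The median log2 fold change was 0.15, beside 0.13 over all tested genes. TTLL5, a tubulin glutamylase, had a mean of 12.1 TPM in siCTR and 21.2 TPM in siCEP20 (0.76, adjusted p = 0.000555). AGBL5, a deglutamylase, had a mean of 39.2 and 57.1 TPM (0.53, adjusted p = 0.00108).

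The promoters of the most and the least changed member are shown to set their sequence beside their values. RefSeq start sites were matched for 10 of 10 members (GRCh38.p14), and the bases just upstream of the start of TUBA4A (chr2:219253919-219254094, minus strand) and TUBB4B (chr9:137241037-137241286, plus strand) read as follows, without bases of an annotated exon. Capitals mark CCAAT or its reverse complement ATTGG, and GGGCGG or its reverse complement CCGCCC.
TUBA4A: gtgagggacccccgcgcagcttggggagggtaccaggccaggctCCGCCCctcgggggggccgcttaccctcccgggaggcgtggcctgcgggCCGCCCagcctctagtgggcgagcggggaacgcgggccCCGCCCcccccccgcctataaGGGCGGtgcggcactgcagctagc
TUBB4B: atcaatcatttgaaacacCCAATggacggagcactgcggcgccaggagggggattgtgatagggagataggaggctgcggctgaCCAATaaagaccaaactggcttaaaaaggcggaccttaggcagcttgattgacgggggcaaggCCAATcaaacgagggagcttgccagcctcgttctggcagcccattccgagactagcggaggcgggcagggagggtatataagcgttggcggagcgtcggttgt
The stretch of TUBA4A held 4 matches to GGGCGG and 0 to CCAAT, and that of TUBB4B held 3 matches to CCAAT and 0 to GGGCGG. Other members differed from this pairing of letters and change. Over 250 upstream bases TUBA1A, with a log2 fold change of 0.82, held 2 matches to CCAAT and 0 to GGGCGG. TUBA1B, at 0.34, held 0 and 3. A link between these letters and the changes was not tested. Over 250 upstream bases on both strands, CCAAT was present at a start site of 7 of 10 members and in 32.0% of 35116 RefSeq promoters, GGGCGG at 8 of 10 and in 42.6%, and TATAAA at 1 (TUBB2A) and in 10.7%. Members with several start sites counted when any of them held the letters. The shares over RefSeq promoters count each start site singly, so they are not in the same unit as the member counts. Overlapping matches of 1 motif were each counted. These are descriptions of letters and not of bound factors.

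The genes whose log2(TPM + 1) ran most like the leading member of each pool over the 6 libraries were taken from all tested genes outside the members. For TUBA1B they were GBF1 (Pearson r = 0.999), INTS3 (r = 0.999) and EIF3A (r = 0.999), and for TUBB CLSTN3 (r = 0.999), RAB3GAP1 (r = 0.999) and ZFP64 (r = 0.999). With 6 points that fall into 2 groups and share the scale of each library, such values are common: 3459 of 14768 genes had r over 0.9 with TUBA1B and 3639 with TUBB.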

How the data were processed

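Per the labels and the methods, the authors trimmed reads with fastp 0.20.1, aligned them to hg38 with HISAT2 2.1.0, quantified genes with StringTie 2.0 and deposited 1 table of TPM for the 6 libraries. The annotation release is not given in the sources used here. TPM keeps neither counts nor depth, so the authors' count test was not run, no counting interval was computed, and precision rests on 3 libraries a group. All value columns were matched to samples by name, and 60370 of 60624 gene IDs matched GENCODE 44.

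Genes whose mean reached 1 TPM were compared on log2(TPM + 1) with limma 3.58.1 in R 4.3.3 (eBayes with a trend, no rescaling, no term for the replicate number) and Benjamini-Hochberg adjustment. Called means past both thresholds of the methods, an adjusted p under 0.05 with a fold change above 1.5 or below 0.67. Pools and shares were computed in Python 3.11.15 and compared by two-sided exact permutation tests. The fit was tested on simulated data.

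The members and lists were chosen with earlier results of these data known. Named were all members and CEP20, up to 2 genes a list and direction with the smallest adjusted p, every other alpha or beta tubulin gene whose mean reached 1 TPM, and the 3 genes most like TUBA1B and TUBB. STK16, AFG3L2, TUBA1B-AS1 and the readthrough gene were added for their overlap with a member. Same-numbered libraries correlated at 0.157, -0.0614 and -0.0623 in their deviations from the group means, and differently numbered ones at -0.121 to 0.17. MTATP8P1 was above 0 only in siCTR-1 and siCEP20-1. Whether the replicate numbers mark a shared batch is therefore not settled by these values. Alternatives were other pseudocounts, filters, scalings, thresholds, pools, a replicate block and each library left out. Leaving out mitochondrial pseudogenes was chosen after seeing the data.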

Additional observations from a re-analysis of the deposited data

How the results depend on the processing

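The count of members called higher was 2 and became 9 with the adjusted p alone and 1 with a fold change over 2; it was 2 to 3 with each library left out and 2 in the other alternatives. The log2 fold changes of the 8 members other than TUBB2A and TUBB4B kept their sign and their side of the adjusted p threshold in all 14 alternatives, from 1.38 to 1.59 for TUBA4A and from 0.67 to 0.87 for TUBA1A. TUBA1C passed the fold threshold without siCTR-3 (0.63) and without siCEP20-1 (0.63). TUBB2A lost its adjusted p under 0.05 in 10 of them, among them median-of-ratios scaling (0.239), quantile normalization (0.209), no filter (0.091) and eBayes without a trend (0.0602). TUBB4B turned to -0.13 with median-of-ratios scaling, to -0.0015 without siCTR-1 and to -0.0040 without siCEP20-2, and ran from -0.0040 to 0.062 with each library left out, none past the threshold. Its difference of means went from 6.65 to -33.2 TPM with median-of-ratios scaling, a setting chosen for the gains of single members after seeing the data. The cause of these changes was not tested.

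The difference in the share of TUBA1C was -0.075 points and became 0.70 points with group medians and -0.45 to 0.48 points with each library left out, being 0.41 without siCTR-3 and 0.48 without siCEP20-1. That of TUBB2A ran from -0.15 to 0.0084 points, the highest without siCEP20-3. The pools, their ratio and the other 8 shares kept their direction in every alternative computed for them. Quantile normalization was not among these, so their direction under it is not known. The pool without isotypes under 1% equalled the pool as reported, as no member was under 1%.

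With the replicate block 2 members were called higher and 8 rose, as the adjusted p of TUBB2A was 0.0521; no other member changed its side of the adjusted p threshold. Differences within pairs equalled the unpaired ones, with a smallest exact p of 0.25.

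With median-of-ratios and quantile scaling, 2 and 2 folding genes rose in place of 5, 0 and 1 gamma, delta or epsilon tubulins in place of 2, and 2 and 2 modifying enzymes fell in place of 0. Without the trend the first 2 counts were 3 and 1, and without a filter the second was 0. Depth is unknown, so its limits cannot be given.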
